A study of Bos taurus with 30 samples.

Results

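Nuclear-encoded mitochondrial genes are the genes of the cell nucleus whose proteins work in the mitochondrion. Here 65 genes, picked as such by the words of their descriptions, were followed through the storage of cattle blood. Where each protein works was not checked. The genes were taken from an annotated gene list ordered by identifier, of which a part with 1630 genes was used here. A gene was included when its description named the mitochondrion, NADH:ubiquinone, cytochrome c or ATP synthase, when it was no zinc finger or solute carrier gene, when it was absent from the study's lists of genes in enriched categories, and when its abundance was above 1 CPM (counts per 1000000 counts of the library) in 5 or more of the 30 libraries. The words named 65 genes, the last pair of conditions removed 0 of them, and the genes make up 65 of the 27607 genes counted. They are a sample of the mitochondrial genes set by the order of identifiers, and other nuclear genes for mitochondrial proteins lie outside it.

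Mitochondria make most of the cell's ATP by passing electrons along complexes I to IV of the inner membrane and using the resulting proton gradient to drive ATP synthase. A few subunits of these complexes are encoded by the mitochondrial DNA and are translated on mitochondrial ribosomes, whereas the other subunits, all proteins of those ribosomes and the import machinery are made from nuclear genes. Blood cells kept cold and away from the circulation depend on the mitochondria and on glycolysis that they already have, and lymphocytes and monocytes are known to use mitochondrial respiration more than neutrophils do.

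The libraries came from peripheral white blood cells (PWBCs), the nucleated cells of the buffy coat, of 5 young crossbred beef heifers (Angus x Simmental) that had all been through estrus synchronization with hormones. Each heifer gave coccygeal blood, taken at the tail and worked up at 1 h, and jugular blood, taken at the neck and worked up after 1, 3, 6, 8 or 24 h at 4 °C. Coccygeal blood at 1 h, jugular blood at 1 h and jugular blood at 24 h had 5 libraries each, here named by heifer A to E, and the other 15 libraries are the jugular blood of 3 to 8 h, for which the time and heifer of each column were not known here, so that they enter as a range and a median with no test. The cells are a mixture, and fewer cells of one type cannot be told apart from less RNA per cell.

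Libraries held between 12412619 and 19492274 counts, so that 3 counts were worth between 0.154 and 0.242 CPM, a limit that covers counting error only. The markers of T cells (CD2, CD4, CD6, CD8A and CD28) were all present in every group, and their summed abundance was between 455.6 and 529.6 CPM at 1 h and between 213.3 and 390.0 CPM at 24 h in jugular blood, with 5 of 5 markers lower at 24 h (edgeR, FDR under 0.05). The 4 markers of platelets and endothelium summed to between 402.5 and 611.7 CPM at 1 h and between 628.9 and 890.6 CPM at 24 h, with 3 of 4 higher. Of the other markers, 0 of 2 of B cells, 1 of 4 of monocytes (CD14), 1 of 3 of cytotoxic cells (PRF1), 1 of 3 of neutrophils (FFAR2), 1 of 2 of eosinophils (IL5RA) and 0 of 2 of erythroid cells and megakaryocytes passed the same test, all lower at 24 h, and 0 markers were listed at 0. All 5 T cell markers, CD14, FFAR2, GZMB, VWF and SELP stand in the study's lists of genes in categories enriched among those changed at 24 h in these samples, so their counts follow from that choice and are no independent evidence of a direction. Of the markers from outside those lists, GNG11 of platelets was higher and PRF1 and IL5RA were lower, while P2RY1 of platelets did not pass (FDR = 0.431). These markers moved between the same libraries as the comparison of storage below, and their part in the mitochondrial values was not tested.

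The levels of the genes were compared with each other per length of the longest transcript and library total (FPKM), as the mean of the 15 libraries of the 3 groups with known heifers. They spanned from 1.05 ± 0.198 FPKM (SD, n = 15) for AIFM2, a ubiquinone reductase that protects membrane lipids, to 236 ± 20.0 FPKM (SD, n = 15) for ATP5F1A, the alpha subunit of the ATP synthase head, with a median of 22.5 FPKM over the 65 genes. After ATP5F1A came MICOS13, a small subunit of the complex that shapes cristae junctions, at 150 ± 17.7 FPKM (SD, n = 15), ATP5MC3, which encodes a proton-carrying ring subunit of ATP synthase, at 115 ± 12.4 FPKM, and ATP5F1D, the delta subunit, at 107 ± 12.3 FPKM. ATP5MC3 and ATP5F1D differed by less than their spread.

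ATP synthase had the highest median of the 8 role groups at 88.3 FPKM, followed by complexes III and IV at 80.6 FPKM and complex I at 39.0 FPKM. The small subunit of the mitochondrial ribosome had a median of 31.3 FPKM, import and proteolysis 20.9 FPKM and the large ribosomal subunit 20.2 FPKM. The genes for expression of the mitochondrial DNA had a median of 16.3 FPKM, and the genes for membrane organisation, which hold both MICOS13 and AIFM2, one of 5.32 FPKM. Several assembly factors were low: NDUFAF4 and NDUFAF7, which help to build complex I, stood at 5.43 and 11.9 FPKM against 79.9 FPKM for the subunit NDUFB8, COA7 of complex IV assembly stood at 6.99 FPKM, and ATPAF1, which assembles the ATP synthase head, stood at 19.2 FPKM, the lowest of its 6 genes. Not all were, since COX14 and the copper chaperone COX17, which also serve complex IV assembly, stood at 83.1 and 80.6 FPKM, and the subunit NDUFS4 at 12.5 FPKM lay next to NDUFAF7. COX8B, annotated as the heart and muscle form of a complex IV subunit, was low at 1.91 ± 1.11 FPKM (SD, n = 15).

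**Figure D1:**
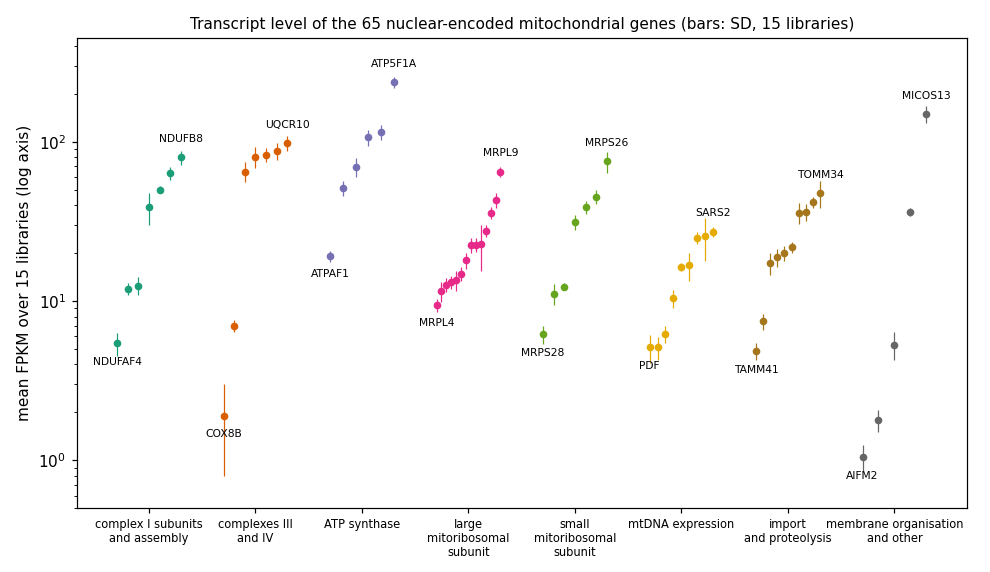
The mean FPKM of each of the 65 genes over 15 libraries is drawn on a log axis by role group, with bars for the SD over the libraries and names for the highest and lowest gene of each group. ATP5F1A lies highest at 236 FPKM and AIFM2 lowest at 1.05 FPKM while COX8B, at 1.91 FPKM, lies lowest among the genes of complexes III and IV.

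The storage comparison asked whether these transcripts changed between 1 h and 24 h in the jugular blood of the same heifers. None of the 65 genes passed the test: in edgeR (quasi-likelihood test, heifers as blocks) there was an FDR (p adjusted by Benjamini and Hochberg) under 0.05 for 0 of 65, where 1669 of the 14018 genes tested did (11.9%), 845 of them higher (6.03%) and 824 lower (5.88%). In DESeq2's Wald test 1 of 65 did, MRM2, where 10.4% of all genes did. The stricter rule of the study, an FDR under 0.05 in both tools and a log2 fold change beyond 0.5 in edgeR, was met by 0 of 65 genes and by 2.58% of all genes. Without adjustment, 7 of the 65 had an edgeR p under 0.05, where 28.1% of all genes did.

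The differences were small as well as below the threshold. The log2 fold changes in edgeR ran from -0.24 for TFAM to 0.38 for MRPL57, with a median of 0.04 over the 65 genes and 0.01 over all genes tested. In absolute size 47 of the 65 were under 0.1, where 39.5% of all genes were, and 65 of 65 were under 0.5, where 92.4% were. The 95% interval of the log2 fold change (DESeq2, not adjusted for the number of genes) lay wholly within 0.5 of 0 for 58 of 65 genes, against 61.9% of all genes. The median abundance of the 65 genes was 30.9 CPM and that of all genes tested 25.4 CPM, and the median standard error of the log2 fold change was 0.108 and 0.12. The 7 genes with an interval reaching beyond 0.5 were MRM2, MRPL57, MARS2, PDF, COX8B, AIFM2 and MGARP, and a change of that size could not be told from none for the last 5 of these at this depth and number of heifers.

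**Figure D2:**
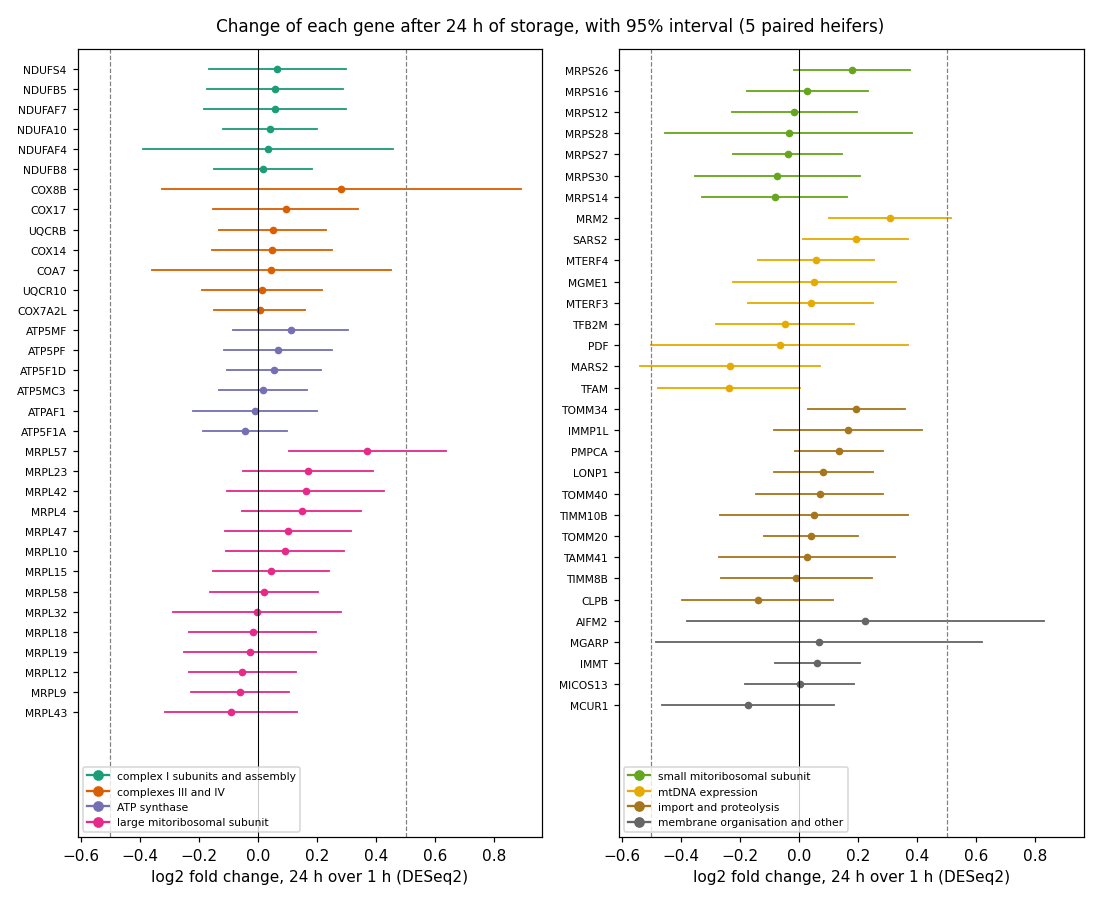
The log2 fold change of the genes from 1 h to 24 h (DESeq2, 5 paired heifers) is drawn as a point with its 95% interval as a line, in colour by role group, with dashed lines at a log2 fold change of 0.5 in each direction, and 1 of the 65 genes is not drawn. The intervals of 7 genes reach beyond the dashed lines, and those of AIFM2, COX8B and MGARP are among the widest.

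**Figure D3:**
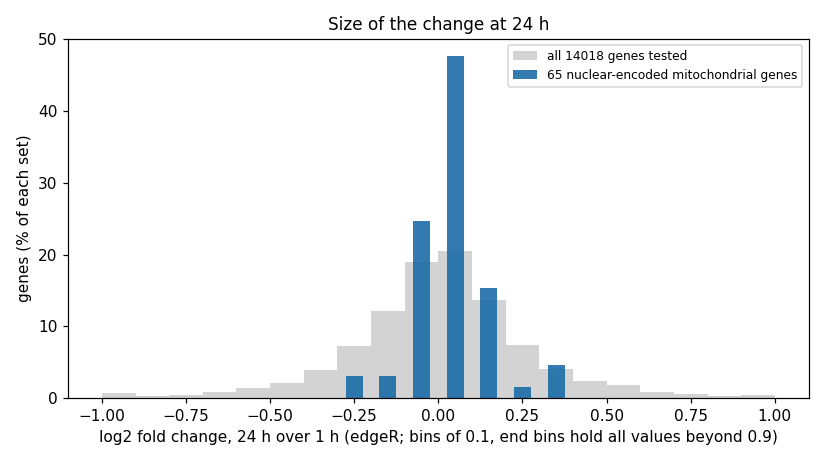
The share of genes in each bin of log2 fold change from 1 h to 24 h (edgeR, bins 0.1 wide) is drawn for the 65 genes in blue and for all 14018 genes tested in grey. The 65 genes lie between -0.24 and 0.38, while the grey bars reach both end bins, which also hold all values beyond 0.9.

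Complex I, the NADH dehydrogenase at which electrons enter the chain, was represented by 7 genes, among them the subunits NDUFA10, NDUFB5, NDUFB8 and NDUFS4 and the assembly factors NDUFAF4 and NDUFAF7, and 0 of 7 passed the test. The log2 fold changes were all above 0 and reached 0.07, with a median of 0.04. Of all 14018 genes tested 7279 were above 0, and of 13 genes of the cytosolic ribosome 12 were, with a median of 0.03. The summed abundance of the 7 genes in heifers A to E was 343, 369, 351, 380 and 338 CPM at 1 h and 347, 370, 351, 388 and 362 CPM at 24 h. It was higher at 24 h in 5 of 5 heifers, with a mean ratio of 1.02 ± 0.0285 (SD, n = 5), and the groups overlapped. NDUFS4, an accessory subunit at the electron input arm, had the largest difference of the group. Its abundance was 19.2, 24.9, 21.2, 23.3 and 20.1 CPM at 1 h and 19.5, 23.5, 19.4, 26.2 and 25.9 CPM at 24 h, higher in 3 of 5 heifers, with a log2 fold change of 0.07 (edgeR, FDR = 0.665). NDUFB8 had a mean of 77.6 ± 8.02 CPM and later of 78.8 ± 9.49 CPM (SD, n = 5).

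Complex III passes electrons to cytochrome c and complex IV passes them to oxygen. UQCRB and UQCR10 of complex III, and COX7A2L, COX8B, COX14, COX17 and COA7 of complex IV and its assembly, gave 0 of 7 genes past the test, with log2 fold changes from 0.01 to 0.32 and a median of 0.05. UQCR10 was at 44.7, 50.8, 43.8, 41.9 and 44.5 CPM at 1 h and 44.6, 41.6, 41.8, 52.6 and 48.2 CPM at 24 h in heifers A to E, so that it was lower in 3 heifers and higher in D and E. COX8B had the largest difference of the group at 3.85, 2.71, 1.57, 1.51 and 2.09 CPM at 1 h and 7.12, 2.20, 1.10, 2.15 and 3.31 CPM at 24 h. Heifer A was the highest of the 5 in both groups, and the difference was a log2 fold change of 0.32 (edgeR, FDR = 0.395) with a 95% interval from -0.33 to 0.89 in DESeq2. COX8B was also the gene of the 65 that did not exceed 1 CPM in every one of the 30 libraries, with a lowest count of 12.

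ATP synthase, the rotary enzyme that makes ATP, was represented by 6 genes. These were ATP5F1A of the head, the delta subunit ATP5F1D, ATP5PF of the peripheral stalk, ATP5MC3 and ATP5MF of the membrane part and the assembly factor ATPAF1. The 6 genes took 925 ± 48.7 CPM (SD, n = 5) at 1 h and 922 ± 77.8 CPM at 24 h, and 0 of 6 passed the test, with a median log2 fold change of 0.04. ATP5F1A alone accounted for 573, 499, 557, 623 and 572 CPM at 1 h and for 498, 558, 545, 628 and 515 CPM at 24 h. Heifer D had the highest level at both times, and the log2 fold change was -0.04 with a 95% interval from -0.19 to 0.10. ATP5MF had the largest difference of the group, at 57.4 ± 4.44 CPM (SD, n = 5) at 1 h and 62.6 ± 9.89 CPM at 24 h, a log2 fold change of 0.11 (edgeR, FDR = 0.426).

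The large subunit of the mitochondrial ribosome, which joins amino acids into the proteins encoded by the mitochondrial DNA, was the largest group with 14 genes. It gave 0 of 14 past the test, log2 fold changes from -0.09 for MRPL43 to 0.38 for MRPL57, and a median of 0.03, with 8 genes above 0 and 6 below. MRPL57 (ENSBTAG00000003315, chromosome 12, 35582808 to 35583891, ARS-UCD1.2) was the gene with the largest difference and the smallest edgeR p of all 65. Its abundance in heifers A to E was 13.1, 18.03, 15.3, 25.0 and 26.1 CPM at 1 h and 16.3, 24.6, 20.7, 42.3 and 24.1 CPM at 24 h. It was higher at 24 h in 4 of 5 heifers and lower in E, and the groups overlapped. The log2 fold change was 0.38, or 1.30-fold, with an unadjusted p of 0.00681 and an FDR of 0.0543 in edgeR, and 0.37 ± 0.136 (SE) with an FDR of 0.0529 in DESeq2. Without heifer E, the only heifer in which MRPL57 was lower, the log2 fold change was 0.50 with an FDR of 0.0260 in edgeR. A larger change follows from leaving out that heifer. Over all alternatives run the edgeR FDR of MRPL57 reached 0.544. MRPL9, the most abundant of the group per length, was at 78.9 ± 3.32 CPM (SD, n = 5) at 1 h and 76.0 ± 7.33 CPM at 24 h.

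The small subunit, which reads the mRNA, had a median log2 fold change of -0.03, the only one of the 8 role groups below 0, though it was 0.01 without heifer C and 0.02 without heifer E. Of its 7 genes 0 passed the test, and 5 were below 0 and 2 above. MRPS26 had the largest difference, at 39.4, 54.8, 46.9, 50.3 and 66.8 CPM at 1 h and 52.5, 55.0, 50.4, 67.2 and 65.6 CPM at 24 h. It was higher in 4 of 5 heifers with overlapping groups, and its log2 fold change was 0.18 (edgeR, FDR = 0.173). The other 6 genes lay between -0.08 for MRPS14 and 0.03 for MRPS16.

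The 9 genes that copy, process and translate the mitochondrial DNA held 3 of the 7 genes with an unadjusted edgeR p under 0.05. Of all genes tested 28.1% had such a p. These 3 genes differed in direction. MRM2 (chromosome 25, 40977160 to 40983409), which methylates the RNA of the mitochondrial ribosome, was at 46.0, 30.7, 68.2, 29.0 and 40.9 CPM at 1 h and at 62.8, 39.4, 63.7, 34.5 and 61.9 CPM at 24 h. Heifers A, B, D and E were higher at 24 h and C was lower, and the heifers kept the same order at both times, from C as the highest through A, E and B to D. The log2 fold change was 0.31, or 1.24-fold, with FDR = 0.0563 in edgeR, and 0.31 ± 0.105 (SE) with FDR = 0.0339 in DESeq2. In the main fits MRM2 was thus the single gene that passed in one tool and not in the other. The main edgeR fit scaled by library size only, and with TMM scaling MRM2 also passed in edgeR (FDR = 0.0419). Without heifer C, the only heifer in which MRM2 was lower, it passed too (edgeR log2 fold change 0.42, FDR = 0.0214). A larger change follows from leaving out that heifer. Over all alternatives run the edgeR FDR of MRM2 reached 0.671.

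SARS2 (chromosome 18, 48630043 to 48639088), which charges the mitochondrial tRNA for serine, was the single gene of the 65 whose groups did not overlap, where 3.9% of all genes did not. It was at 45.4, 52.6, 50.5, 47.2 and 50.4 CPM at 1 h and at 59.7, 58.2, 52.9, 56.4 and 53.8 CPM at 24 h, higher in 5 of 5 heifers. The lowest library at 24 h was just above the highest at 1 h. Its log2 fold change was 0.19 with FDR = 0.0870 in edgeR and 0.169 in DESeq2. The start of SARS2 on chromosome 18 lies 187 bases from that of MRPS12 on the other strand (ARS-UCD1.2), and the counting did not use the strand. MRPS12 itself had a log2 fold change of -0.01.

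TFAM (chromosome 28, 45677709 to 45689736), which packages the mitochondrial DNA and is needed to start its transcription, went the other way. It was at 21.1, 20.5, 28.0, 27.7 and 19.3 CPM at 1 h and at 16.8, 21.0, 24.6, 18.8 and 17.6 CPM at 24 h. Heifer B was the exception among 4 lower heifers, and the groups overlapped. The log2 fold change was -0.24, the lowest of the 65, with FDR = 0.125 in edgeR and a standard error of 0.123 in DESeq2. MARS2, which charges the mitochondrial tRNA for methionine, had a log2 fold change of -0.23 at 12.0 ± 2.10 CPM (SD, n = 5) at 1 h and 10.1 ± 0.889 CPM at 24 h, with FDR = 0.184 (MARS2 is named after its value was seen). The other genes of the group, TFB2M and MTERF3 of transcription, MTERF4 of ribosome assembly, the nuclease MGME1 and the peptide deformylase PDF, lay between -0.06 and 0.06, so that the 9 genes had 5 values above 0, 4 below and a median of 0.04, which was -0.04 without heifer E.

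Nuclear-encoded proteins enter through the TOM and TIM translocases, and peptidases trim or degrade them inside. Of the 10 genes of import and proteolysis 0 passed the test and 8 were above 0, where 7279 of all 14018 genes tested were above 0. The log2 fold changes ran from -0.14 for the disaggregase CLPB to 0.20 for TOMM34, with a median of 0.06. The summed abundance of these genes was higher at 24 h in 5 of 5 heifers, at 419, 454, 436, 400 and 406 CPM at 1 h and 460, 474, 447, 451 and 433 CPM at 24 h. The mean ratio was 1.07 ± 0.0412 (SD, n = 5), and the groups overlapped. The sum weighs abundant genes most. PMPCA and TOMM34, the highest of the group in CPM, went from means of 93.9 and 88.6 CPM to 103 and 101 CPM. TOMM34 (chromosome 13, 73347049 to 73367104), a cofactor that hands unfolded proteins to the outer membrane, was at 106, 99.8, 94.8, 72.3 and 70.4 CPM at 1 h and at 120, 116, 89.1, 87.5 and 93.8 CPM at 24 h. It was higher in 4 of 5 heifers and lower in C, with a log2 fold change of 0.20 (edgeR, FDR = 0.101). Without heifer C the log2 fold change was 0.27 (edgeR, FDR = 0.0413), and a larger change follows from leaving out that heifer. Over all alternatives run the edgeR FDR of TOMM34 reached 0.582. TOMM34 was the gene of this group with the largest fold and with the highest level per length.

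LONP1, the main protease of the mitochondrial matrix, was at 63.2, 76.7, 66.7, 62.7 and 74.5 CPM at 1 h and at 74.1, 74.4, 69.8, 72.3 and 72.6 CPM at 24 h. The 24 h libraries lay inside the range of the 1 h libraries, and the log2 fold change was 0.08 with a 95% interval from -0.09 to 0.25. PMPCA, the alpha subunit of the peptidase that removes import signals, was higher in 5 of 5 heifers, at 93.9 ± 4.74 CPM (SD, n = 5) at 1 h and 103 ± 6.31 CPM at 24 h, and its log2 fold change was 0.14 (edgeR, FDR = 0.129). PMPCA, SARS2 and IMMT, a scaffold of the cristae junctions with a log2 fold change of 0.06, were the 3 of 65 genes with 1 sign in all 5 heifers, where 26% of all genes had it (PMPCA and IMMT are named after their values were seen).

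In the group of membrane organisation, 0 of 5 genes passed the test, with log2 fold changes from -0.17 for MCUR1, a regulator of the calcium uniporter, to 0.23 for AIFM2. MICOS13 had one of the smallest differences of all, at 52.6 ± 4.85 CPM (SD, n = 5) at 1 h and 52.9 ± 6.41 CPM at 24 h. AIFM2 was at 2.31, 2.22, 2.48, 1.63 and 2.42 CPM at 1 h and at 3.17, 2.31, 2.92, 2.71 and 1.81 CPM at 24 h, higher in 4 of 5 heifers with overlapping groups (edgeR, FDR = 0.465).

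Taking a wider threshold, an FDR under 0.1 in edgeR, 3 of 65 genes passed, MRPL57, MRM2 and SARS2, all higher at 24 h, where 19.3% of all genes passed. This threshold was added after the data were seen.

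The share of all counts that the 65 genes took was 0.299% at 1 h and 0.306% at 24 h. Their summed abundance in heifers A to E was 2876, 3018, 2999, 3088 and 2953 CPM at 1 h and 2921, 3056, 2967, 3302 and 3075 CPM at 24 h. It was higher at 24 h in 4 heifers and lower in C, and the ratio of 24 h to 1 h was 1.03 ± 0.0306 (SD, n = 5). The role groups differed in how evenly the heifers moved. The ratio for complexes III and IV ranged from 0.908 in heifer B to 1.15 in heifer E, whereas that for complex I ranged from 1.00 to 1.07.

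**Figure D4:**
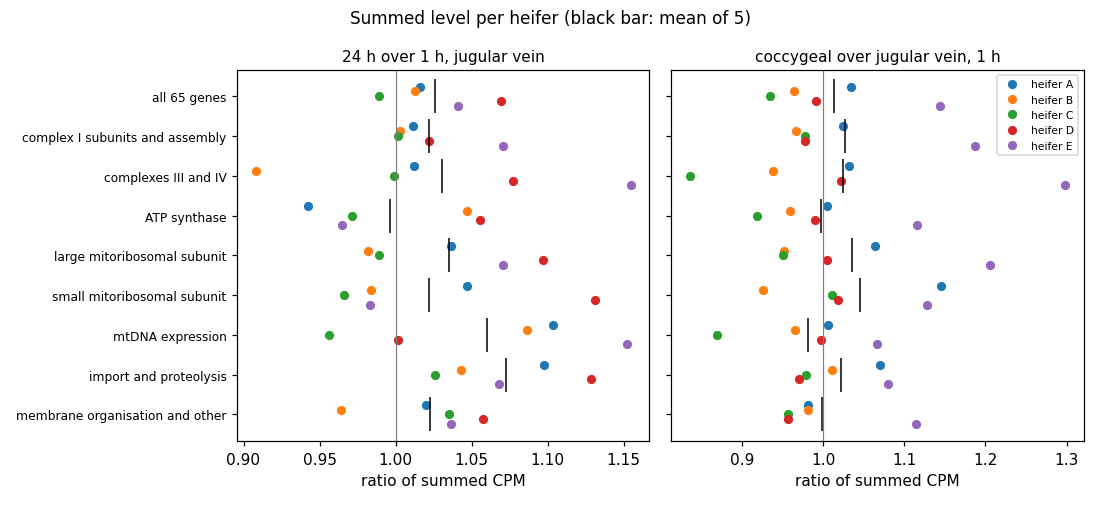
The ratio of summed CPM in each heifer, 24 h over 1 h in the left panel and coccygeal over jugular in the right panel, is drawn by role group with 1 point per heifer and a black bar for the mean of 5. On the left the 65 genes together lie between 0.989 and 1.07, and on the right heifer E lies at 1.14 while the other heifers lie between 0.935 and 1.03.

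Across the members of a role group the median difference of a heifer could be larger than the mean over heifers. For complexes III and IV the median log2 difference from 1 h to 24 h was 0.11 in heifer A, -0.20 in B, -0.04 in C, 0.31 in D and 0.18 in E. For 13 genes of the cytosolic ribosome, a list chosen for comparison, the medians in the same heifers were 0.04, -0.16, -0.12, 0.29 and 0.12. Both sets were lowest in B and highest in D, and 0 of 13 cytosolic ribosomal genes passed the test. The part of the libraries' composition in this was not tested.

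Other mitochondrial genes from the same gene list, chosen by name and not for how they moved, gave 2 of 42 past the test, where 11.9% of all genes passed. These were AMT of glycine breakdown, 1 of 13 genes of fuel oxidation, which rose from a mean of 63.6 CPM to 82.4 CPM (edgeR log2 fold change 0.38, FDR = 0.0219), and SLC25A24, 1 of 8 mitochondrial carriers, which fell (log2 fold change -0.44, FDR = 0.0411). None of the 21 genes of mitochondrial upkeep passed in edgeR, and 0 of 21 did in DESeq2. An unadjusted edgeR p under 0.05 was found for 5 of 21, where 28.1% of all genes had one. The median log2 fold change of the 42 genes was 0.02. Of 6 glycolysis genes, ADPGK passed the test with a log2 fold change of -0.31 (FDR = 0.0151), and the median of the 6 was -0.11. In DESeq2 2 of 6 passed, ADPGK and PGK1 (FDR = 0.0492 for PGK1), where 10.4% of all genes did.

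At 3 to 8 h the summed abundance of the 65 genes ranged from 2477 to 3270 CPM with a median of 3077 CPM over the 15 libraries, which lies between the lowest and highest jugular library at 1 h. The library at 2477 CPM stood apart, since the next lowest was at 2827 CPM. In that library 46 of the 65 genes were below the other 14 libraries of 3 to 8 h and 1 was above them, and of all genes tested 28.4% were below and 10.4% above. The summed abundance of the 13 cytosolic ribosomal genes was also lowest there, at 6990 CPM against 7241 to 9947 CPM in the other 14 libraries. That library entered no test. For 61 of the 65 genes the median of the 15 libraries lay within the range of the 5 jugular libraries at 1 h. The other 4 were SARS2, AIFM2, MTERF3 and TAMM41 (named after their values were seen). The same count was not made over all genes tested, so it shows nothing particular to the 65.

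Some of the genes with the larger differences at 24 h had a median at 3 to 8 h between the means of 1 h and 24 h, whereas MARS2, with a median of 12.1 CPM, did not. MRPL57 ranged from 14.5 to 35.9 CPM with a median of 23.4 CPM, between means of 19.5 CPM at 1 h and 25.6 CPM at 24 h. SARS2 ranged from 45.1 to 59.4 CPM with a median of 54.5 CPM, between 49.2 and 56.2 CPM. TFAM ranged from 15.6 to 31.0 CPM with a median of 20.0 CPM, between 23.3 and 19.7 CPM. MRM2 ranged from 29.5 to 67.2 CPM with a median of 43.1 CPM, next to the 43.0 CPM of 1 h, and each of these ranges overlapped both groups.

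**Figure D5:**
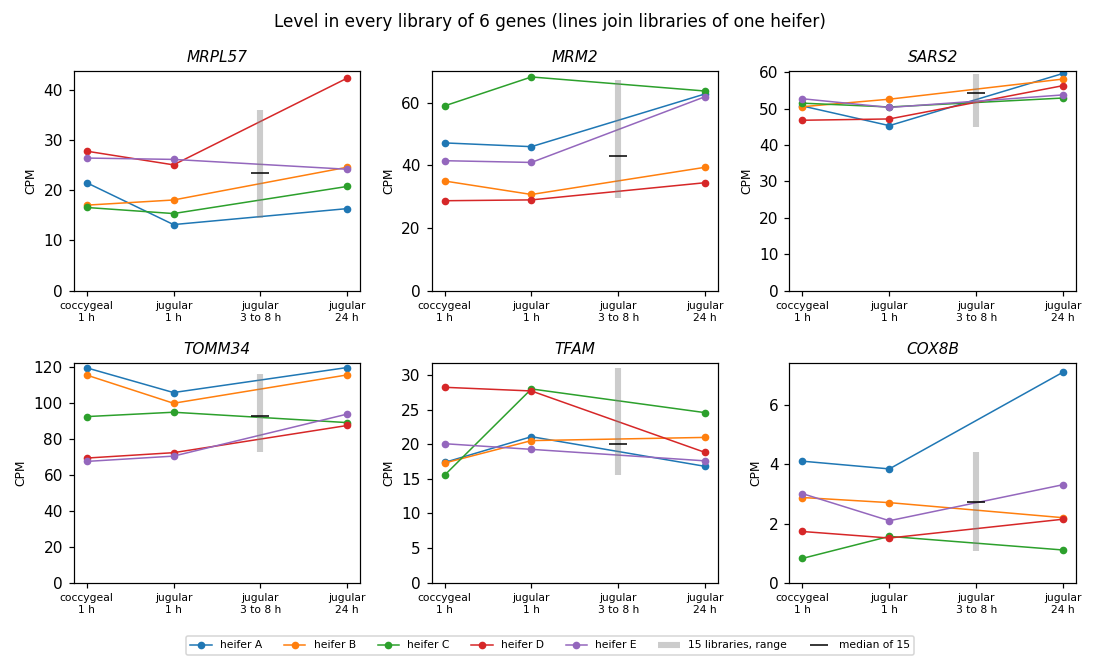
The CPM of MRPL57, MRM2, SARS2, TOMM34, TFAM and COX8B is drawn for the 5 coccygeal libraries at 1 h and the 5 jugular libraries at 1 h and 24 h, with a colour and a line for each heifer, and the 15 libraries of 3 to 8 h as a grey range with the median as a black bar. For MRM2 the lines span from 28.7 to 68.2 CPM, and those of heifers A, C and E nearly meet at 24 h. For COX8B they span from 0.820 to 7.12 CPM, and lines below that of heifer A cross. For SARS2 the 24 h libraries lie from 52.9 CPM up.

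The spread between heifers was set beside the difference between storage times. Each heifer gave 3 libraries to the groups with known heifers. For 54 of 65 genes the SD between the heifers' means exceeded the absolute log2 fold change at 24 h. The same held for 8713 of all 14018 genes tested. Because that SD also holds part of the spread within a heifer, the counts do not rank heifer against storage effects. Over the 65 genes the median SD between heifer means was 0.12 and the median SD within a heifer 0.14 on the log2 scale, and over all genes tested they were 0.18 and 0.18. The largest SD between heifers was that of COX8B at 0.74, with a mean of 5.03 CPM in heifer A and 1.16 CPM in heifer C (3 libraries each). MRM2 followed at 0.43, MRPL57 at 0.38, TOMM34 at 0.28 and NDUFB5 at 0.27, and MRM2, MRPL57 and COX8B also had the largest SD between heifers at 1 h in jugular blood alone.

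For 6 of the 65 genes all 3 libraries of 1 heifer lay above or below all libraries of the others, where 18.1% of all genes tested had such a heifer and 9.23% of the 65 did. COX8B was highest in A. TOMM20, a receptor of the outer membrane translocase, was lowest in A, at 49.4 to 51.2 CPM, and highest in D, at 72.3 to 77.4 CPM. ATP5F1A was highest in D at 619 to 628 CPM, IMMT was highest in B at 109 CPM in each library, and ATP5MF and NDUFB8 were lowest in C. Since NDUFB5 and MRPL47 overlap by 128 bases on chromosome 1 (87518534 to 87518661, ARS-UCD1.2) on opposite strands, reads of that stretch cannot be told apart between them.

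The vein comparison asked whether the place of sampling made a difference at 1 h, with the same 5 jugular libraries as in the storage comparison. In edgeR 0 of 65 genes had an FDR under 0.05, where 0% of all genes did, and 0 of 65 did in DESeq2. At an unadjusted p under 0.05 there were 0 of 65 genes in edgeR, where 1.98% of all genes tested were. The log2 fold changes of coccygeal over jugular blood ran from -0.25 to 0.18 with a median of 0.02, and the 95% interval lay within 0.5 of 0 for 60 of 65 genes, against 73.7% of all genes.

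The summed abundance of the 65 genes in coccygeal blood was 2975, 2910, 2804, 3059 and 3378 CPM in heifers A to E. Heifer E had the highest value of the 5 and a ratio to its jugular library of 1.14, while the ratio in heifer C was 0.935, and the mean ratio was 1.01 ± 0.0815 (SD, n = 5). The jugular library of E had the lowest total count, 12412619. In E the median log2 difference of coccygeal over jugular blood was 0.41 for complexes III and IV, 0.33 for complex I, 0.27 for the large and 0.20 for the small mitoribosomal subunit, and 0.16 for the cytosolic ribosomal genes. Without heifer E the median log2 fold change of the 65 genes between veins was -0.04.

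TFAM, MRPL57 and MRPS26 had the largest differences between veins, and they are also among the genes with an unadjusted p under 0.05 between storage times. Both comparisons use the same jugular libraries at 1 h. For TFAM the coccygeal libraries were at 17.4, 17.3, 15.5, 28.2 and 20.1 CPM, with a log2 fold change of -0.25 between veins and of -0.24 between storage times. Heifers A, B and C were lower in coccygeal blood and D and E were slightly higher. MRPL57 was at 21.5, 17.0, 16.5, 27.7 and 26.4 CPM in coccygeal blood, with log2 fold changes of 0.18 and 0.38. MRPS26 was at 60.3, 52.7, 50.6, 54.7 and 70.5 CPM, with log2 fold changes of 0.17 and 0.18. For MRPL57 and MRPS26 the jugular library of heifer A at 1 h was the lowest of all 15, at 13.1 and 39.4 CPM. This library enters both comparisons, and its part in the differences was not tested. In edgeR each of the 3 genes had an FDR of 1.00 between veins.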

How the data were processed

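RNA of PWBCs was sequenced from 30 samples of 5 heifers with a stranded mRNA kit. Per the labels and methods, the authors trimmed reads with cutadapt 2.8, aligned them to ARS-UCD1.2 with HISAT2 2.2.0, filtered them with SAMtools 1.10, took out duplicates, and assigned the remaining fragments to Ensembl genes by featureCounts (Subread 2.0.1) without using the strand. The values the authors deposited are raw counts, not normalized, for 27607 genes.

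The heifer and group of 15 columns came from the study's supplementary code, and the other 15 of the 30 columns were taken as the 3 to 8 h samples by elimination, since the series has 30 samples. CPM are counts divided by the column total, and FPKM also by transcript length. Names, descriptions, lengths and coordinates came from the annotation columns of the study's supplementary gene list, and its statistics (fold changes and p-values) were not used. The study's additional FPKM filter was left out.

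The 14018 genes that exceeded 1 CPM in at least 5 of 30 columns were tested. Each comparison was fitted on its 10 libraries with the heifer as a block, in edgeR 4.0.16 (quasi-likelihood, robust, library size as the only scaling, older fitting method) and DESeq2 1.42.0 (Wald test, 95% intervals from its standard errors) under R 4.3.3, and p-values were adjusted over all genes tested. Log2 differences of single heifers used a prior count of 2. The steps were tested on simulated data. Libraries of 1 heifer deviated together from the group means (lowest r of a pair 0.539 for storage and 0.411 for veins). The labels give the heifer of each sample, while the pairing of the columns came from the study's supplementary code.

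The members and lists were chosen with earlier results of these data known. Named are members that met the study's rule, in each of 8 role groups the largest change, the smallest p and the highest FPKM, the 3 with the largest difference between veins and the 3 with the largest SD between heifers at 1 h, and TFAM and LONP1, and any other member given with values was chosen after its values were seen. Genes of the mitochondrial DNA, sequences and promoters were not analysed here. The values of 1 member are not reported here, though it is in all counts and medians.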

Additional observations from a re-analysis of the deposited data

Results flagged for a closer look

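In the 5 jugular libraries at 1 h, MRPL9 was at 73.2 CPM in heifer E while the other 4 libraries lay between 79.2 and 81.5 CPM, a gap of 0.728 of the group's range. In the 5 coccygeal libraries, LONP1 was at 58.6 CPM in heifer D while the others lay between 69.6 and 74.0 CPM, a gap of 0.714 of the range. Both libraries were far from the others by Dixon's criterion for 5 samples, and 2 of 54 groups were marked, where chance marks about 1 in 20. MRPL9 had a log2 fold change of -0.06 and LONP1 one of 0.08 from 1 h to 24 h, and neither passed the test in any of the alternatives.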

How the results depend on the processing

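The count of 0 members higher at 24 h in edgeR became 1 with TMM scaling (MRM2), 2 with no filter (MRM2 and MRPL57), 1 in DESeq2 (MRM2) and 3 at an FDR under 0.1, an alternative chosen after seeing the data. Leaving out 1 heifer gave between 0 and 2, namely MRM2 and TOMM34 without C and MRPL57 without E. In each case that heifer was the only one in which the gene was lower at 24 h. With no replicate block the count was 0, as with the pairing, and the block changed no other call in edgeR. The count of members lower at 24 h, the count meeting the study's rule and the count between veins were 0 in all alternatives run, fold thresholds of 0 and 1 included. The median log2 fold change of the members stayed between 0.03 and 0.05 and the summed ratio between 1.01 and 1.03. Of 17 named members, 4 (NDUFS4, NDUFB8, UQCR10 and MICOS13) changed sign in 1 or more alternatives, none passing the threshold there. Over the alternatives the edgeR FDR ranged from 0.0214 to 0.671 for MRM2, from 0.0260 to 0.544 for MRPL57 and from 0.0413 to 0.582 for TOMM34. The causes were not tested. Without heifer E, MRPL57 had an FDR under 0.05 in both tools and a log2 fold change of 0.495 in edgeR and 0.502 in DESeq2, on either side of the limit of 0.5, which is read from edgeR in the study's rule. The count of 0 for that rule without heifer E rests on that reading. The single median of a role group below 0 in the report, that of the small mitoribosomal subunit, ranged from -0.05 to 0.02 over the alternatives. With 5 heifers, the intervals of 7 members reached beyond a change of 0.5, and for 5 of these such a change could not be told from none.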
